A study of Mus musculus with 1814 samples.

Results

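The cells described here were light zone germinal center B cells of mice, taken at 46 h and at 12 h of a time course and compared within the same experiment. They were the Dec+ wells that the sample labels put in the light zone at these times in experiment 3 (plates 3 to 6) and experiment 4 (plates A to D). There were 100 of them among 1814 samples, and the combined count table held 965 cells. At 46 h there were 11 cells in experiment 3 and 17 in experiment 4, against 46 and 26 cells at 12 h. No measured value was used to choose them.

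The series sequenced RNA of single index-sorted cells by SmartSeq2, a full-length method primed on poly(A) tails and without molecular identifiers. Dec+ cells of both zones were collected at 12, 30, 46 and 60 h, and per the labels' protocols the conditions of a replicate shared plates. In the files both times compared here were on all 4 plates of each experiment, while the 5 light zone cells of 60 h in experiment 4 were on 3. The labels gave all groups used here the same source, germinal centers of mice. They gave no strain, age, sex or animal for these wells, entered the genotype as not available, and did not say from which event the hours were counted or what Dec stands for. Since no animal was named, the cells of each experiment, zone and time were added up and the experiment was the replicate. The p-values therefore measure only the spread between these sums.

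Germinal center B cells alternate between a light zone, where they capture antigen and receive help from T cells through CD40 and cytokines, and a dark zone, where they divide and mutate their immunoglobulin genes. A cell that has been helped can start its cycle in the light zone and complete it in the dark zone. H2AX, the histone variant encoded by H2afx, is phosphorylated beside DNA breaks, and its RNA is made in larger amounts in dividing cells. H2afx lies on mouse chromosome 9 at 44334715 to 44336077 (GRCm38.p6, RefSeq, where its symbol is H2ax).

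The 4 sums held 2612730 reads (experiment 3) and 5133020 reads (experiment 4) at 46 h, against 11030200 and 8887920 reads at 12 h. Median reads per cell were 240886 and 295225 at 46 h and 233868 and 337624 at 12 h, with medians of 2478 and 2387 genes read at 46 h and 2840.5 and 2363.5 at 12 h. Levels are given as CPM, the reads of a gene scaled to the total of its sum, and they are not divided by transcript length. Markers of germinal center B cells were read in every sum, with 7094 and 6437 CPM for 9 genes together at 46 h and 6671 and 7337 CPM at 12 h. The T cell genes Cd3d, Cd3e, Cd3g and Cd4 and the myeloid genes Lyz2, C1qa and Adgre1 were at 0 in all 4 sums. Other members of these marker lists, Lck, Apoe and Selenop, had reads in all 4 sums. Apoe had 1115 and 809 CPM at 46 h and 739 and 453 CPM at 12 h. Selenop had 225 and 122 CPM at 46 h against 17.2 and 9.001 CPM at 12 h. The authors' own light zone flag was missing for 1 and 3 of the 46 h cells and for 1 and 1 of the 12 h cells.

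H2afx RNA was higher at 46 h in both experiments. It had 775 CPM in experiment 3 and 448 CPM in experiment 4 at 46 h, against 189 and 195 CPM at 12 h, so that the lower of the 46 h values was above both 12 h values. The fitted log2 ratio was 1.68 ± 0.28 (SE), and the gene did not pass the threshold of 0.05 after adjustment over all 11116 genes (edgeR quasi-likelihood test, adjusted p = 0.0513, a value shared with 12 other genes). In this fit 0 genes passed (0.0% of the genes tested), with 301 higher and 919 lower at an unadjusted p under 0.05. DESeq2 on the same sums called 143 genes higher and 556 lower. The median log2 ratio over all genes tested was -0.21. Of these genes 1123 were at 0 in both 46 h sums and 240 in both 12 h sums. The balance differed among the 1482 broadly read genes defined below. There 107 were higher and 78 lower at an unadjusted p under 0.05 (edgeR), with a median of 0.12. With the sums of experiment 1 added to the fit, 4 genes passed upwards and 51 downwards (0.472% of 11661 genes). H2afx rose there by a log2 ratio of 1.70 ± 0.26 (edgeR adjusted p = 0.0205). Experiment 1 had light zone cells of 12 h and dark zone cells of a later time, but no light zone cells of 46 h. It therefore added no replicate of the 46 h light zone. The fits that left out experiment 3 or experiment 4 also kept the sums of experiment 1, and each held 1 light zone sum of 46 h. The ratio of H2afx was 1.47 without experiment 3 and 2.06 without experiment 4.

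The share of cells with H2afx reads differed less than the level. Reads were found in 8 of 11 cells (72.7%, exact Clopper-Pearson 95% interval 39.0 to 94.0%) in experiment 3 and in 14 of 17 (82.4%, 56.6 to 96.2%) in experiment 4 at 46 h. At 12 h they were found in 33 of 46 cells (71.7%, 56.5 to 84.0%) and in 15 of 26 (57.7%, 36.9 to 76.6%). These intervals cover counting error only, take cells as independent, and overlap in both experiments. With each cell thinned to 50000 reads the shares were 72.7% and 80.1% at 46 h and 67.4% and 54.7% at 12 h, in the same order. The highest single cells reached 3179 and 2852 CPM at 46 h, against 1178 and 911 CPM at 12 h. The median cells had 299 and 147 CPM at 46 h and 105 and 69.6 CPM at 12 h. One cell gave 38.7% of the H2afx reads of the 46 h sum in experiment 3 and 35.8% in experiment 4, against 14.1% and 20.7% for the leading cells of 12 h.

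**Figure D1:**
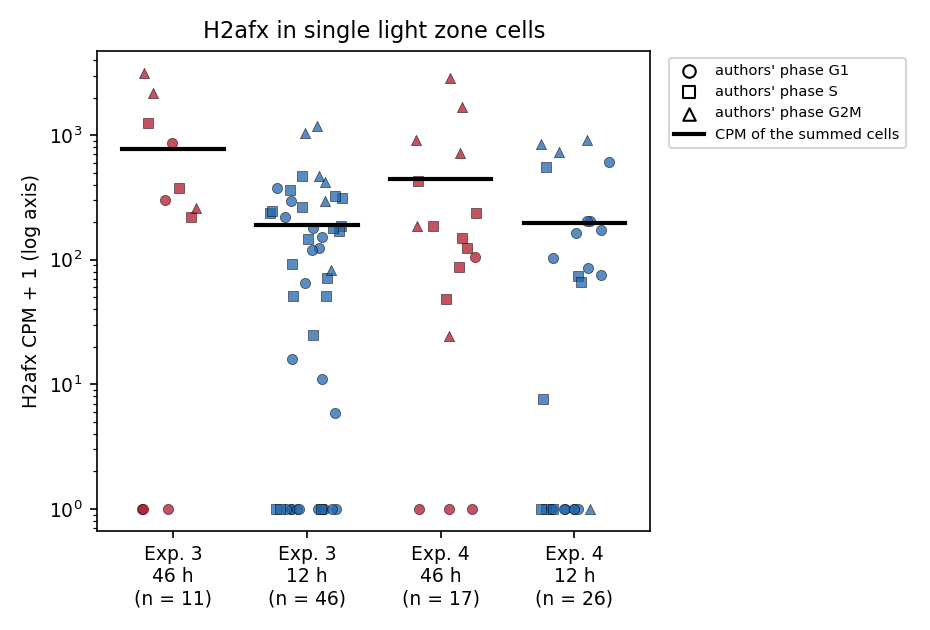
H2afx CPM plus 1 on a log axis in each light zone cell (points, shaped by the authors' cell cycle phase), by experiment and time, with the CPM of the summed cells as a bar. The bars stand at 775 and 448 CPM at 46 h and at 189 and 195 CPM at 12 h, while cells without reads lie on the bottom line in every group.

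Both times were on every plate, so the comparison could be repeated plate by plate with few cells each. H2afx was higher at 46 h on 6 of 8 plates. In experiment 3 the plates gave 661, 235, 713 and 1851 CPM at 46 h, against 148, 136, 217 and 261 CPM at 12 h on the same plates, higher in each. In experiment 4 plates B and D gave 779 and 834 CPM at 46 h against 28.1 and 194 CPM at 12 h. Plates A and C ran the other way, with 212 and 131 CPM at 46 h and 268 and 196 CPM at 12 h. The 46 h value of a plate rested on 2 to 8 cells.

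The 46 h cells had the higher median FUCCI intensity, a sort measurement that does not use RNA. The FUCCI reporter marks cell cycle stages by fluorescence, and the files give 1 intensity per cell in arbitrary units without naming the colour. Its median was 2202 in experiment 3 and 3903 in experiment 4 at 46 h, against 115 and 147.5 at 12 h. At or above 1000, a value chosen after the intensities had been seen, lay 6 of 11 cells (54.5%, exact interval 23.4 to 83.3%) and 9 of 15 (60.0%, 32.3 to 83.7%) at 46 h. At 12 h there were 11 of 46 (23.9%, 12.6 to 38.8%) and 3 of 26 (11.5%, 2.45 to 30.2%). With 2 experiments no exact permutation test can reach 0.05, and none was run. The ranges overlapped widely, from 36 to 39211 at 46 h and from 16 to 29021 at 12 h. In the dark zone of the same plates the shares at or above 1000 were 39.7% and 22.2% at 46 h and 11.6% and 23.6% at 12 h.

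The authors' phase calls, which rest on RNA of the same cells and so are not independent of cell cycle genes, gave 27.3% and 35.3% of cells in G2M at 46 h, against 13.0% and 15.4% at 12 h. The exact intervals overlap, from 6.02 to 61.0% and 14.2 to 61.7% at 46 h and from 4.94 to 26.3% and 4.36 to 34.9% at 12 h. G1 calls were 45.5% and 23.5% at 46 h and 45.7% and 57.7% at 12 h, so the share in G1 was lower in experiment 4 and about equal in experiment 3. The median G2M score was 0.28 and 0.35 at 46 h and -0.74 and -0.73 at 12 h.

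The surface protein CD83, an activation marker of light zone cells, had a median sort intensity of 2365 and 2611 at 46 h against 4732 and 4855.5 at 12 h, lower in both experiments, and still far above the 253 and 227.5 of dark zone cells at 46 h. CXCR4, the receptor that holds cells in the dark zone, had medians of 127 and 297 at 46 h against 143 and 116 at 12 h, so the experiments went opposite ways. The zone labels go with staining for these proteins, so neither they nor their transcripts tell independently which zone a cell came from. Cd83 RNA did not follow the protein in both experiments, with 4548 and 1158 CPM at 46 h and 3342 and 3561 CPM at 12 h. In experiment 3 a single 46 h cell held 43.2% of its Cd83 reads.

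**Figure D2:**
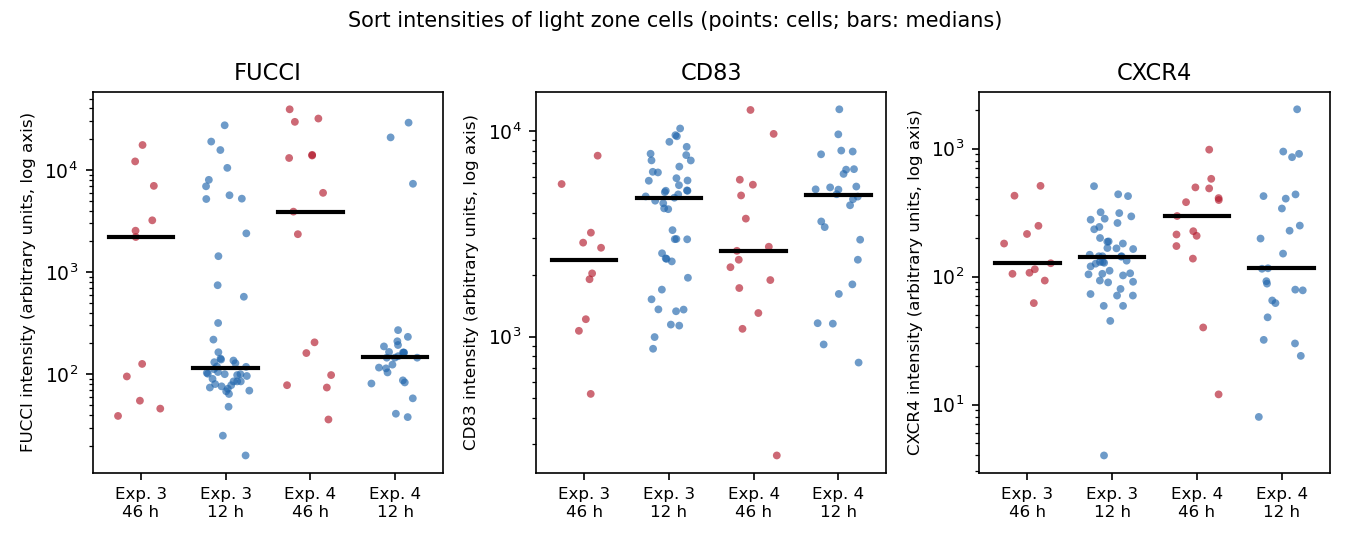
Sort intensities of FUCCI, CD83 and CXCR4 in arbitrary units on log axes, 1 point per light zone cell and a bar at each median, by experiment and time. The FUCCI medians are 2202 and 3903 at 46 h against 115 and 147.5 at 12 h, and the CD83 medians are lower at 46 h in both experiments.

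H2afx RNA went with cell cycle position at both times, and the difference between times was also present within most classes of cells, on few cells each. In cells called G2M it had 1904 CPM (3 cells) and 1025 CPM (6 cells) at 46 h, against 572 (6 cells) and 588 CPM (4 cells) at 12 h. In cells called S it had 619 and 190 CPM at 46 h and 164 and 95.2 CPM at 12 h. In G1 the experiments disagreed, with 215 and 32.0 CPM at 46 h and 72.2 and 115 CPM at 12 h. Among cells with FUCCI at or above 1000, H2afx had 1132 and 692 CPM at 46 h and 427 and 830 CPM at 12 h, the last from 3 cells, so that experiment 4 reversed there. Among cells under 1000 it had 215 and 174 CPM at 46 h and 102 and 100.2 CPM at 12 h, higher in both experiments. Reads were in 2 of 5 and 4 of 6 of these cells at 46 h, and in 23 of 35 and 12 of 23 at 12 h. In experiment 3 the share with reads was thus lower at 46 h, and 1 of the 2 cells with reads had 866 CPM. How much of the H2afx difference goes with the makeup of the cells by phase was not tested.

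Over the whole time course the light zone of experiment 3 had 189, 344, 775 and 850 CPM of H2afx at 12, 30, 46 and 60 h, an increase at each step. Experiment 4 had 195, 221, 448 and 73.8 CPM, the last from 5 cells. The dark zone had 430, 408, 658 and 700 CPM in experiment 3 and 407, 345, 379 and 426 CPM in experiment 4. The light zone change from 12 to 46 h exceeded that of the dark zone by a log2 ratio of 1.34 ± 0.39 and did not pass (edgeR adjusted p = 0.514). DESeq2 gave 1.41 with an adjusted p of 0.0335. By edgeR the zone difference passed for 0 of 11116 genes (0.0%), with 183 above and 596 below 0 at an unadjusted p under 0.05, and DESeq2 called 41 and 176.

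**Figure D3:**
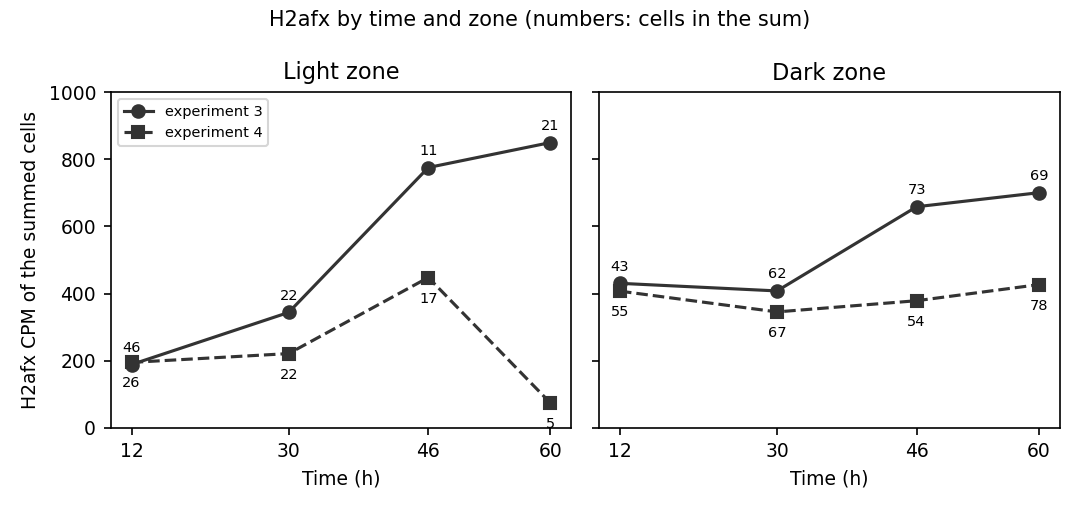
H2afx CPM of the summed cells against time in hours, for the light zone (left) and dark zone (right), with 1 line per experiment and the number of cells beside each point. In the light zone the 46 h points at 775 and 448 CPM lie above the 12 h points at 189 and 195 CPM, and the 60 h point of experiment 4 rests on 5 cells.

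A rule that asked for broad reading named 12 genes in each direction. It took genes with a mean of at least 100 CPM over the 4 sums, reads in at least 50% of cells at either time in both experiments and the same direction in both, and ranked them by the smaller of the experiments' changes. Of 1482 broadly read genes 367 were higher at 46 h in both experiments (24.8%) and 318 were lower (21.5%). The named genes were chosen for their direction and did not pass the edgeR test, so the values below are a description.

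Several of the 12 higher genes act in making DNA or in dividing. Tk1, thymidine kinase, had 342 and 248 CPM at 46 h and 112 and 72.0 CPM at 12 h, with reads in 7 of 11 and 11 of 17 cells at 46 h against 24 of 46 and 7 of 26 at 12 h. Rrm2, the regulated subunit of ribonucleotide reductase, had 1327 and 858 CPM at 46 h and 491 and 297 CPM at 12 h. One cell held 66.6% of the Rrm2 reads of the 46 h sum in experiment 3. There the shares of cells with reads were about equal, at 6 of 11 (54.5%) at 46 h and 25 of 46 (54.3%) at 12 h. In experiment 4 Rrm2 reads were in 13 of 17 cells at 46 h and 7 of 26 at 12 h. Cdk1, the kinase that drives entry into mitosis, had 314 and 308 CPM at 46 h against 136 and 134 CPM at 12 h. Cdca3, a promoter of entry into mitosis, had 245 and 285 CPM at 46 h against 93.3 and 99.0 CPM at 12 h. In all of these genes both 46 h sums were above both 12 h sums.

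The other members of this group were Tcf19, first described as a gene of late growth stages, with 306 and 151 CPM at 46 h and 120 and 30.9 CPM at 12 h, and Rhno1, a partner of the 9-1-1 checkpoint clamp, with 194 and 140 CPM at 46 h and 78.2 and 33.2 CPM at 12 h. Hist1h2ap had 1486 and 766 CPM at 46 h and 624 and 78.5 CPM at 12 h. Its reads were in 5 of 11 and 13 of 17 cells at 46 h against 23 of 46 and 7 of 26 at 12 h. The share was thus lower at 46 h in experiment 3. Hist1h2ap belongs to a family of near-identical histone genes, and RefSeq lists its name for more than 1 gene. Most transcripts of this family lack the poly(A) tail the priming needs, so the level of Hist1h2ap is uncertain. Blvrb, biliverdin reductase B, had 315 and 305 CPM at 46 h and 132 and 69.3 CPM at 12 h, with reads in 8 of 11 and 14 of 17 cells at 46 h against 23 of 46 and 9 of 26 at 12 h. Def6, an exchange factor of lymphocytes, Fam207a, and Ssna1, a microtubule-associated protein, completed the list beside H2afx, with fitted log2 ratios of 1.51, 1.32 and 1.78. One 46 h cell held 59.7% of the Def6 reads of experiment 4 and one held 60.7% of the Ssna1 reads of experiment 3.

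Promoter letters are shown for 3 of these genes, the Cdk1, Rrm2 and Tcf19 promoters, because members of the group were higher together and their upstream sequence holds the CCAAT box, a common element of cell cycle promoters that the factor NF-Y binds. Each run is the part of the 250 bases before the RefSeq start (GRCm38.p6) that lies outside annotated untranslated regions, 5′ to 3′ on the gene's strand, and capitals mark CCAAT or ATTGG and TTTGAA or TTCAAA. They lie at chr10:69352939-69353162 (Cdk1, minus strand), chr12:24708004-24708240 (Rrm2, plus strand) and chr17:35516825-35517074 (Tcf19, minus strand).
Cdk1: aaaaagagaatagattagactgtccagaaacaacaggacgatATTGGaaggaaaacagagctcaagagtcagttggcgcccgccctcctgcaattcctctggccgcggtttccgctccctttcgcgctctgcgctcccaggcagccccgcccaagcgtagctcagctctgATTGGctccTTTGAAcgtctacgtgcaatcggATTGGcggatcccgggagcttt
Rrm2: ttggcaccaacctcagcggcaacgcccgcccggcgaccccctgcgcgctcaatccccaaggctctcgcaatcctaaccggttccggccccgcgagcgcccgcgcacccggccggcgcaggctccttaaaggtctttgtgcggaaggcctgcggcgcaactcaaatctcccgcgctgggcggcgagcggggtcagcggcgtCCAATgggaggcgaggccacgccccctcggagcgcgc
Tcf19: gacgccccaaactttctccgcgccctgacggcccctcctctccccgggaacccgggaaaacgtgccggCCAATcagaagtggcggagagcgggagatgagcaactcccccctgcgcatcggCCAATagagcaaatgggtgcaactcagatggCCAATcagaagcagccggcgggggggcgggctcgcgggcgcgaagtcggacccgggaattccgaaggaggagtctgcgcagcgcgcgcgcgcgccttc

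CCAAT or its complement ATTGG was found 3 times in the run of Cdk1, once in that of Rrm2 and 3 times in that of Tcf19. TTTGAA, the core of the cell cycle homology region, or its complement TTCAAA was found in Cdk1 alone among these 3 runs, and no motif overlapped another. RefSeq promoters were matched for 8 of the 12 higher and 11 of the 12 lower genes. CCAAT or ATTGG was in the 250 bases of 4 of the 8 and 4 of the 11, against 34.5% of 27025 promoters. It occurred 2 or more times in 3 of the 8 and 0 of the 11, against 10.5% of all promoters. TTTGAA or TTCAAA was in 2 of the 8 and 1 of the 11, against 16.3%. The matches describe letters and do not show binding.

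Within phase classes, Rrm2, Tk1, Cdk1, Cdca3 and Hist1h2ap were examined. The phase calls rest on RNA of the same cells. The level of a cell cycle gene within a class, or its absence there, can thus be set in part by the calls. In S cells Rrm2 had 3048 and 1211 CPM at 46 h and 893 and 644 CPM at 12 h, and Tk1 had 520 and 265 CPM at 46 h and 146 and 148 CPM at 12 h. In G2M cells Cdk1 had 644 and 532 CPM at 46 h and 589 and 368 CPM at 12 h. In G1 cells Cdk1 had no reads at either time in either experiment. Cdca3 in G2M cells had 543 and 527 CPM at 46 h and 363 and 204 CPM at 12 h, and it was also read in 2 of 5 G1 cells of experiment 3 at 46 h. The experiments disagreed for Hist1h2ap in G2M cells, with 631 and 1208 CPM at 46 h and 2215 and 233 CPM at 12 h. Among cells with FUCCI under 1000, Tk1 had 77.7 and 100.1 CPM at 46 h and 56.5 and 72.7 CPM at 12 h, higher in both experiments. Its reads were in 1 of 5 and 2 of 6 of these cells at 46 h, and in 13 of 35 and 6 of 23 at 12 h. The share with reads was thus lower at 46 h in experiment 3. In the same cells Rrm2 had 0 and 326 CPM at 46 h and 403 and 249 CPM at 12 h, and Cdk1 had 0 and 116 CPM at 46 h and 37.96 and 76.7 CPM at 12 h, both lower at 46 h in experiment 3 and higher in experiment 4. Cdca3 went the opposite way there, with 189 and 62.8 CPM at 46 h and 20.6 and 72.1 CPM at 12 h.

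The 12 lower genes were of other kinds. Ptprc, which encodes the phosphatase CD45, had 193 and 359 CPM at 46 h against 462 and 1127 CPM at 12 h, with reads in 8 of 11 and 15 of 17 cells at 46 h and in 46 of 46 and 25 of 26 at 12 h. Cd22, an inhibitory coreceptor of the B cell receptor, had 246 and 192 CPM at 46 h against 623 and 476 CPM at 12 h. Both 46 h sums were under both 12 h sums in each of these genes. Rubcn, a negative regulator of autophagy, had 32.9 and 26.9 CPM at 46 h against 142 and 207 CPM at 12 h, a fitted log2 ratio of -2.45 ± 0.34 (edgeR adjusted p = 0.0513). Lamp1, a lysosome membrane protein, had 51.3 and 104 CPM at 46 h against 188 and 315 CPM at 12 h.

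Xist, the RNA that coats the inactive X chromosome, had 83.6 and 82.6 CPM at 46 h against 263 and 517 CPM at 12 h, a fitted log2 ratio of -2.09 ± 0.35 (edgeR adjusted p = 0.0513). Its reads were in 5 of 11 and 9 of 17 cells at 46 h and in 29 of 46 and 16 of 26 at 12 h. The Y-linked genes Ddx3y, Kdm5d and Uty were at 0 in all 4 sums, and Eif2s3y was read in 1 cell of 46 h and 2 of 12 h, all in experiment 4. The sex of the animals is not in the labels, and its part in the Xist difference was not tested. With experiment 1 added, Rubcn fell by 2.25, Xist by 2.09 and Ptprc by 1.33 on the log2 scale, and these were the members of this group past the threshold there (edgeR adjusted p from 0.0224 to 0.0475).

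The rest of the lower group were the RNA helicases Ddx18 and Dhx15, the ribosome assembly factor Dcaf13, the zinc finger protein Zc3h15, the kinases Wnk1 and Stk4, and the membrane protein Tm9sf2. Their fitted log2 ratios ran from -2.17 ± 0.71 for Ddx18 to -1.32 ± 0.31 for Zc3h15. The share of cells with reads was lower at 46 h in both experiments for Ddx18, Dcaf13 and Tm9sf2 only. In experiment 4 it was higher at 46 h for Wnk1 (58.8% against 46.2%), Stk4 (64.7% against 57.7%) and Dhx15 (64.7% against 61.5%). In experiment 3 the share was higher at 46 h for Zc3h15 (63.6% against 60.9%). One cell held 66.7% of the Ddx18 reads of the 46 h sum of experiment 3.

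**Figure D4:**
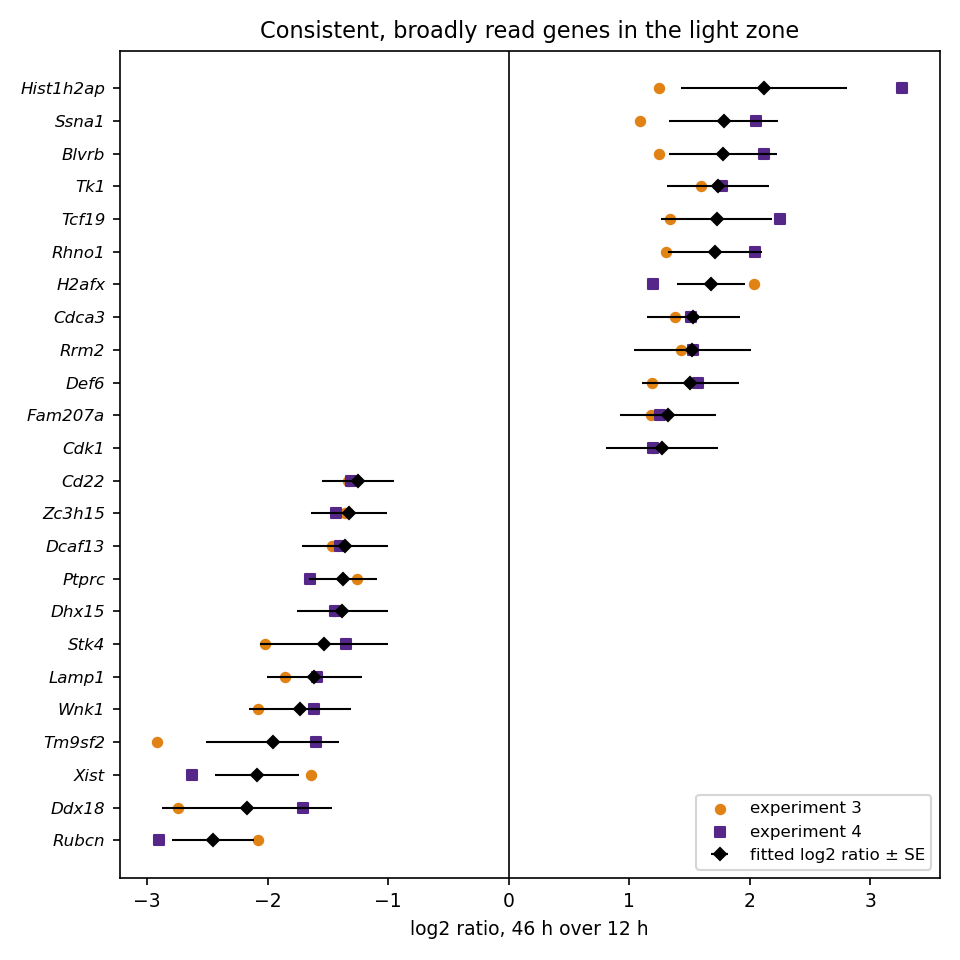
The 24 broadly read genes with the same direction in both experiments, as log2 ratio of 46 h over 12 h. Circles and squares are the experiments and diamonds are fitted values with SE. H2afx lies at 1.68 ± 0.28, and Rubcn at -2.45 is the lowest.

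Gene lists were read by how many members had the same direction in both experiments, beside 14.8% of all genes tested that were higher in both and 29.0% that were lower in both. Among broadly read genes 24.8% were higher in both and 21.5% lower in both, so these shares vary with how broadly genes are read. No list member passed the edgeR test in any of the lists. Among genes of mitosis 27 of 53 were higher in both experiments and 8 lower, with a median log2 ratio of 0.52. Birc5, a subunit of the chromosomal passenger complex, had 252 and 458 CPM at 46 h against 151 and 123 CPM at 12 h. Ube2c, the ubiquitin-conjugating enzyme of the anaphase-promoting complex, had 248 and 378 CPM at 46 h against 79.7 and 208 CPM at 12 h. For G1/S and DNA replication 14 of 33 were higher in both and 5 lower (median 0.20). Gins2, a subunit of the replicative helicase, had 181 and 155 CPM at 46 h against 84.5 and 58.7 CPM at 12 h, while E2f2, of the E2F family of transcription factors, had 6.89 and 16.9 CPM at 46 h against 42.6 and 50.4 CPM at 12 h. Tubulins gave 5 of 9 higher in both and 0 lower (median 0.62), led by Tubb4b with 1044 and 935 CPM at 46 h against 625 and 455 CPM at 12 h, and reads of near-identical tubulin genes can be split between them.

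Variant histones other than H2afx had smaller fitted ratios. Of the 10 genes in that list 6 were higher in both experiments and 0 lower, with a median of 0.59. H2afv, an H2A.Z, had 234 and 308 CPM at 46 h against 168 and 152 CPM at 12 h. H3f3a and H3f3b, which encode the same H3.3 protein, had fitted log2 ratios of 0.63 ± 0.25 and 0.60 ± 0.23 (edgeR adjusted p = 0.365 and 0.331). The genes that signal and mend DNA damage were mixed. Of 27 such genes 7 were higher in both and 10 lower (median -0.23). Trp53 had 496 and 360 CPM at 46 h against 303 and 208 CPM at 12 h. Its target Mdm2 had 24.1 and 27.3 CPM at 46 h against 45.5 and 125 CPM at 12 h, read in 2 of 11 and 3 of 17 cells at 46 h. Hmces, which shields abasic sites, had 651 and 389 CPM at 46 h against 176 and 339 CPM at 12 h.

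The light zone and T cell help genes were mostly lower. Of 23 tested genes 17 were lower at 46 h in both experiments and 0 higher, with a median of -0.67. Il21r, a receptor for the T cell cytokine IL-21, had 405 and 107 CPM at 46 h against 627 and 605 CPM at 12 h, read in 9 of 11 and 8 of 17 cells at 46 h and in 41 of 46 and 20 of 26 at 12 h. Cd86, a costimulatory ligand for T cells, had 324 and 81.8 CPM at 46 h against 334 and 429 CPM at 12 h, lower mainly in experiment 4. Bcl2a1b and Bcl2a1d, near-identical survival genes, had fitted log2 ratios of -0.70 and -1.18. Of the NF-kB pathway, which CD40 feeds, 10 of 18 genes were lower in both and 2 higher (median -0.61). Relb had 16.1 and 87.1 CPM at 46 h against 127 and 109 CPM at 12 h. Its reads were in 2 of 11 and 6 of 17 cells at 46 h and in 21 of 46 and 9 of 26 at 12 h. Junb, an AP-1 gene counted in this list, had 165 and 132 CPM at 46 h against 328 and 273 CPM at 12 h. The light zone change minus the dark zone change had a median log2 value of 0.32 over the light zone list and 0.25 over the NF-kB list, beside -0.26 over all genes tested.

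Genes of the dark zone leaned the other way, with 7 of 14 higher in both and 2 lower (median 0.51). Gcsam, a germinal center signalling adaptor, had 448 and 459 CPM at 46 h against 289 and 171 CPM at 12 h, read in 10 of 11 and 11 of 17 cells at 46 h and in 29 of 46 and 9 of 26 at 12 h. Pafah1b3 had 134 and 92.0 CPM at 46 h against 45.1 and 30.3 CPM at 12 h. Cxcr4 RNA was low throughout, with 0 and 22.4 CPM at 46 h and 1.09 and 58.3 CPM at 12 h. The 5 dark zone markers summed to 1181 and 922 CPM at 46 h against 491 and 594 CPM at 12 h, and the 6 light zone markers to 6947 and 2331 CPM at 46 h against 5766 and 5695 CPM at 12 h. Members did not all follow these sums. Gcsam, Hmces and Rgcc were higher at 46 h in both experiments, Cxcr4 was lower in both, and Otub2 was mixed. Rgcc rested on few cells, 2 of 11 and 2 of 17 at 46 h and 2 of 46 and 1 of 26 at 12 h. Cxcr4 was read in 0 of 11 and 12 of 17 cells at 46 h and in 4 of 46 and 14 of 26 at 12 h. In experiment 4 the share of cells with Cxcr4 reads was thus higher at 46 h. Cd86, Cd40, Il4i1 and Fcer2a were lower at 46 h in both experiments, while Cd83 and Nfkbia were higher in experiment 3 and lower in experiment 4. Whether dark zone cells in the light zone sort take part in these differences was not tested. With the cells left out that lacked the authors' light zone flag, a choice made after seeing the data, 1 gene was higher and 22 were lower, and H2afx rose by 1.87 ± 0.28 (edgeR adjusted p = 0.0373).

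Of 12 plasma cell genes 6 were higher in both experiments and 0 lower (median 0.86, or 0.78 with members at 0 set to their bound). Jchain, which joins polymeric antibodies, had 2263 and 1150 CPM at 46 h against 565 and 693 CPM at 12 h, read in 11 of 11 and 15 of 17 cells at 46 h and in 35 of 46 and 14 of 26 at 12 h. One cell held 43.6% of the Jchain reads at 46 h in experiment 3. Mzb1, a chaperone of antibody secretion, had 394 and 506 CPM at 46 h against 316 and 204 CPM at 12 h. The factor Xbp1 had 688 and 335 CPM at 46 h against 215 and 304 CPM at 12 h. Its reads were in 9 of 11 and 11 of 17 cells at 46 h and in 26 of 46 and 16 of 26 at 12 h. Irf4, another marker of the set, had 57.4 and 7.79 CPM at 46 h against 22.6 and 25.4 CPM at 12 h. The experiments went opposite ways for Irf4. Prdm1, the factor that defines plasma cells, was at 0 and 0.39 CPM at 46 h and at 0 in both 12 h sums, and Sdc1 was at 0.765 and 0 CPM at 46 h and at 0 in both 12 h sums.

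B cell identity genes were mixed, with 9 of 24 higher in both and 5 lower (median 0.10). Mef2b, whose human protein activates BCL6 in germinal center B cells, had 647 and 486 CPM at 46 h against 516 and 225 CPM at 12 h. For MHC class II presentation 4 of 12 were higher in both and 0 lower (median 0.19). Of 13 memory-like genes 6 were lower in both and 2 higher, and the median of -4.44 (-3.41 with bounds) rests on members with few reads, 5 of them at 0 in both 46 h sums. Ltb, a cytokine that supports follicular stroma, had 824 and 418 CPM at 46 h against 407 and 208 CPM at 12 h, above 12 h in each experiment.

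Growth and metabolism genes were divided. For MYC growth and ribosome biogenesis 12 of 33 were lower in both and 2 higher (median -0.16). For oxidative phosphorylation 6 of 31 were higher in both and 2 lower, and the median was -0.30 in experiment 3 and 0.66 in experiment 4. Of 36 cytosolic ribosomal protein genes 4 were higher in both and 0 lower, with a median of -0.24 in experiment 3 and 0.76 in experiment 4. Glycolysis had 2 of 14 higher in both and 3 lower, mTORC1 and amino acid response 3 of 15 higher and 6 lower, and BCL2 family and apoptosis 6 of 16 higher and 4 lower. Among D cyclins, CDKs and inhibitors 4 of 14 were higher and 3 lower. Ccnd3, which encodes cyclin D3, had 679 and 523 CPM at 46 h against 551 and 404 CPM at 12 h, a fitted log2 ratio of 0.40 ± 0.32 (edgeR adjusted p = 0.669).

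Lists of handling and of other cells were read in the same way. Dissociation stress genes had 1 of 11 higher and 5 lower (median -0.39), interferon response 2 of 13 higher and 2 lower, and mitochondrial transcripts 0 of 9 higher and 2 lower. The median percent of mitochondrial reads was 1.01 and 4.34 at 46 h and 1.42 and 4.00 at 12 h, so the experiments differed more than the times. T cell markers, with 0 of 14 higher in both and 2 lower, summed to 94.2 and 158 CPM at 46 h and 127 and 200.0 CPM at 12 h, nearly all of it Lck. Myeloid markers, of which 2 of 4 tested were higher in both and 0 lower, summed to 1374 and 931 CPM at 46 h and 762 and 462 CPM at 12 h, with Apoe at 1115 and 809 CPM at 46 h and 739 and 453 CPM at 12 h. Selenop, a secreted selenium carrier in the same list, had 225 and 122 CPM at 46 h against 17.2 and 9.001 CPM at 12 h, read in 5 of 11 and 2 of 17 cells at 46 h and in 5 of 46 and 2 of 26 at 12 h. It did not pass with experiments 3 and 4 (log2 ratio 3.78 ± 0.86, edgeR adjusted p = 0.107), and with experiment 1 added it rose by 4.06 ± 0.76 (edgeR adjusted p = 0.0338). The part of cells of this kind in the other differences was not tested. Stromal markers, of which 1 was tested and was lower in both, summed to 22.2 and 0 CPM at 46 h and 22.5 and 48.3 CPM at 12 h.

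**Figure D5:**
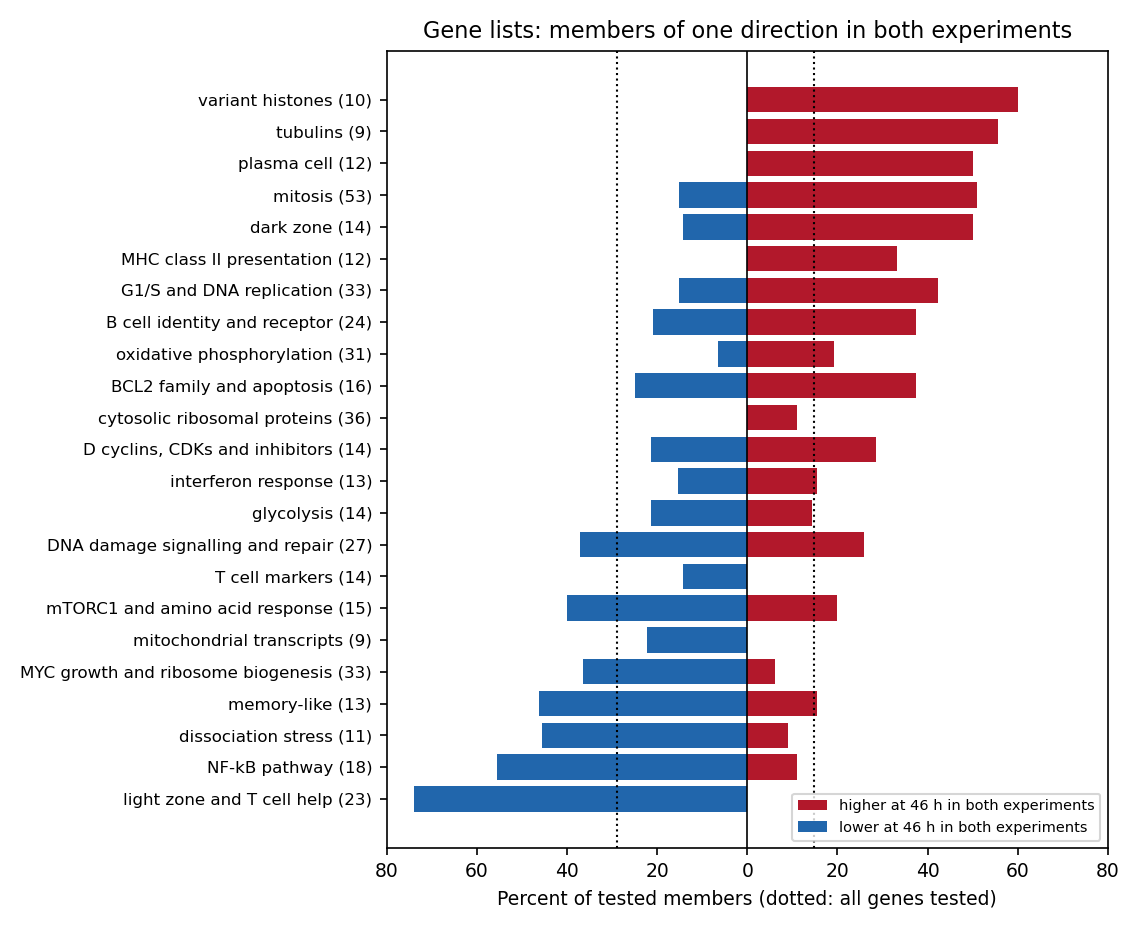
Percent of tested members of each gene list described here with at least 9 tested genes that were higher at 46 h (right) or lower at 46 h (left) in both experiments, with the number tested in parentheses and dotted lines at all genes tested (14.8% and 29.0%). Variant histones, tubulins and mitosis reach farthest right, but most lists pass the line of all genes there. Broadly read genes, not drawn as a line, had 24.8% higher and 21.5% lower in both experiments. The light zone and T cell help list reaches farthest left.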

How the data were processed

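Single wells were sequenced by SmartSeq2. The combined table and the tables per plate that the authors deposited hold expected counts per gene and well, not normalized. Per the submitters' processing notes, which do not assign steps, the build was mm10 and the tools were Seurat 3.1.4, STAR 2.6 and RSEM 1.3.1. The deposited cell table also gives the percent of mitochondrial reads, a score for S and G2M phase, phase calls, and the sort intensity of FUCCI, CXCR4 and CD83 per cell, as the authors made them. The authors' combined table has 0 for 1830 genes (experiment 3) and 2035 genes (experiment 4) of 25125 that have reads in the tables per plate.

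Expected counts were summed over cells per experiment, zone and time (sums of at least 10 cells, experiments 3 and 4, 15 sums), and rounded. The test was edgeR's quasi-likelihood test (R 4.3.3, limma 3.58.1, edgeR 4.0.16) after filterByExpr and TMM scaling, with the experiment as block and 6 residual degrees of freedom. Benjamini-Hochberg adjustment ran over 11116 genes with a threshold of 0.05. The light zone of 60 h in experiment 4, with 5 cells, was left out of the fit. All groups share 1 estimate of the spread. The block stands for the experiment, which per the labels is a sequencing batch whose conditions shared plates. Sums of the same experiment deviated from their group means with correlations from 0.0569 to 0.206 across genes over 42 pairs (median 0.117). DESeq2 1.42.0 was an alternative. Ratios within an experiment used a pseudocount of 1 CPM. Shares have exact Clopper-Pearson 95% intervals. No cell was removed beyond the authors' selection, and no doublet caller was run on these sorted single cells.

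The cells, the 26 gene lists (504 entries) and the tests were chosen with earlier results of these data known. Genes named are H2afx, any past the threshold (none), the 12 per direction described in the report, and up to 4 per list with reads in at least 30% of cells at either time and the same direction in both experiments. Markers of cell types, genes of the Y chromosome, Cxcr4, Prdm1, Sdc1 and Selenop were named outside this rule. The result of 1 list is not reported here. A bound for a gene at 0 uses 3 counts.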

Additional observations from a re-analysis of the deposited data

Results flagged for a closer look

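In 3 of the consistently changed genes, light zone cells of both experiments moved one way between 12 h and 46 h and dark zone cells of both experiments moved the other way. These were Fam207a, Ddx18 and Dcaf13, and the test of the zone difference did not pass for them in edgeR after adjustment over 11116 genes.

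Fam207a had 130 and 154 CPM in the light zone at 46 h against 56.8 and 63.8 CPM at 12 h, and 76.1 and 51.7 CPM in the dark zone at 46 h against 115 and 101 CPM at 12 h. The light zone change minus the dark zone change was 1.996 on the log2 scale (adjusted p = 0.513). The helicase gene Ddx18 had 21.8 and 55.9 CPM in the light zone at 46 h against 152 and 185 CPM at 12 h, and 52.3 and 71.3 CPM in the dark zone at 46 h against 31.0 and 48.0 CPM at 12 h. Its difference was -2.929 (adjusted p = 0.570). Dcaf13 had 53.6 and 93.9 CPM in the light zone at 46 h against 149 and 250 CPM at 12 h, and 132 and 141 CPM in the dark zone at 46 h against 94.7 and 113 CPM at 12 h. Its difference was -1.855 (adjusted p = 0.466).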

How the results depend on the processing

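The number of genes past the threshold depended on the processing. By edgeR it was 0 higher and 0 lower, and it stayed at 0 with DESeq2 size factors, without a filter, with the tables per plate, without cells carrying both zone flags, with cells of 20000 reads or more, and in the 4 light zone sums alone. It was 143 higher and 556 lower with the DESeq2 test, 1 and 13 with a stricter filter, 4 and 51 with experiment 1 added, and 4 and 32 with mean CPM per cell. With only cells carrying the light zone flag, chosen after seeing the data, it was 1 and 22. Leaving out 1 experiment gave 3 higher in either case and 17 (without experiment 3) to 38 (without experiment 4) lower, where a lone sum is assumed to vary like the other groups. The zone difference gave 41 and 176 with the DESeq2 test and 0 otherwise.

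H2afx stayed above 0 under all 14 alternatives (adjusted p from 1.02e-06 to 1.0). With experiment 1 kept in the fit, H2afx was at 1.47, the lowest, without experiment 3 and at 2.06, the highest, without experiment 4. It passed with the DESeq2 test (1.73), the stricter filter (1.71), experiment 1 added (1.70), mean CPM per cell (1.72, adjusted p = 0.046) and the light zone flag (1.87). Its zone difference passed with the DESeq2 test (1.41). Without the replicate block, 0 genes passed in each direction and H2afx was at 1.74 (adjusted p = 0.164). Leaving out the block changed no call in edgeR.

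Among named genes 10 of the recomputed values changed sign. Leaving out experiment 3 or experiment 4 kept experiment 1 in the fit. Values there ran from -0.153 to 0.00937 for Msh6, -1.03 to 0.0190 for Rel and -0.0235 to 1.21 for Sec61b. They ran from -0.123 to 0.111 for Hsph1, -0.0977 to 0.00605 for mt-Co1 and -0.0885 to 0.175 for mt-Cytb. In the other cases mt-Cytb was at 0.0141 with DESeq2 size factors, 0.0142 with the DESeq2 test, 0.0876 with the tables per plate and 0.0395 with the light zone flag. The cause was not tested. With 28 cells at 46 h, intervals of shares are wide, and 1 cell can hold most reads of a gene.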
